A study of Mus musculus with 24 samples.

Results

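Bcl2, Bcl2l1 and Mcl1 encode the anti-apoptotic proteins BCL2, BCL-xL and MCL1. They were followed through every probe annotated to them in the table of scanner intensities, which gave 12 of the 25697 probes and 3 of the 16593 named genes of the array. Bcl2 had 8 probes, Bcl2l1 had 3 and Mcl1 had 1. Of these, 6, 3 and 1 passed the filter on low signal, which asked for a detection p-value under 0.05 on at least 4 of the 24 arrays. A detection p-value gives a probe's rank against the negative-control beads on the same array. The 2 remaining Bcl2 probes, ILMN_1243345 and ILMN_2597272, were detected on 0 of 24 arrays, with intensities of 84.4 to 117.3 and 70.3 to 101.9.

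Anti-apoptotic BCL2 proteins hold back death through the mitochondrial pathway. They bind the effectors BAX and BAK, which otherwise open pores in the outer mitochondrial membrane, and the BH3-only proteins such as BIM, PUMA and NOXA that sense stress and set the effectors free. Pores release cytochrome c, which forms the apoptosome with APAF1 and activates caspase 9. In developing T cells all 3 proteins have survival roles: interleukin 7 (IL7), a cytokine made by thymic stroma, signals through JAK1, JAK3 and STAT5 and is known to maintain BCL2, BCL-xL is the form known for the later CD4 and CD8 double-positive stage, and MCL1 is a short-lived protein needed at several stages.

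Thymocytes were sorted from C57BL/6J mice whose Il7r gene was wild type (Il7r+/+). By surface staining and size, all 3 subsets were Lin- cKit-. DN3a were the small CD25+ cells with little CD71, DN3b the large CD25+ cells with much CD71, and DN4 the large cells with much CD71 that lacked CD25 (CD25-). The DN3a stage comes before beta-selection, the checkpoint for a working T cell receptor beta chain, and the DN3b and DN4 stages come later. Following each of 4 independent sorts, cells rested for 1 h and were then cultured for 3 h, either untreated or with 10 ng/ml IL7, so that 6 groups of 4 arrays were compared on Illumina mouse Ref8v2 beadchips, whose beads carry gene-specific probes. How many mice were pooled for a sort is not given in the sources used here. The submitters' design text mentions technical replicates without naming arrays. The p-values measure how far differences between cultures of the same sort varied over these 4 sorts.

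The number of arrays limits the precision. Median intensities lay between 93.3 and 119.8, each array detected 10940 to 11660 probes, and arrays of the same group correlated at 0.976 to 0.992 across probes, with 0 identical pairs. Of 10 genes that mark T lineage thymocytes, 9 had a probe and all 9 were detected. Cd4 and Cd8a were detected on 0 arrays, while Cd8b1 was detected on 24, and Il2ra, which encodes CD25, was detected on 1 of 4 untreated DN4 arrays. Transcripts of other blood cells differed between sorts. The summed level of 8 granulocyte and myeloid genes was 202 to 8844 in untreated DN4 arrays, with sorts 2 and 3 at 8844 and 8015, against 288 to 1206 in untreated DN3a and 195 to 429 in untreated DN3b arrays. The globin gene Hba-a1 was detected on 12 arrays, those of sorts 1 and 3, with Alas2, a defining red cell gene, on 0. Results below are therefore also given without these sorts where that ended a call or turned a direction.

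The regions around the start sites are shown because the genes differ there in base composition and in the few letters of known response elements. Probes were not placed on transcripts, so no change below is tied to a start site. Each run holds 300 bases from RefSeq on build GRCm38.p6, from 250 bases before to 50 after an annotated start, 5′ to 3′ on the gene's strand. Capitals mark matches to any of 4 motifs searched on both strands: TTCNNNGAA and the same palindrome with 4 bases between TTC and GAA, of the kind STAT proteins bind, TGACG, the cAMP response half-site, and GTAAACA, the FOXO core. The first line is Bcl2 at chr1:106714241-106714540 on the minus strand. The next is Bcl2l1 at chr2:152828440-152828739 on the minus strand, shown because it is the only annotated Bcl2l1 start with a match. The last is Mcl1 at chr3:95658471-95658770 on the plus strand.
Bcl2: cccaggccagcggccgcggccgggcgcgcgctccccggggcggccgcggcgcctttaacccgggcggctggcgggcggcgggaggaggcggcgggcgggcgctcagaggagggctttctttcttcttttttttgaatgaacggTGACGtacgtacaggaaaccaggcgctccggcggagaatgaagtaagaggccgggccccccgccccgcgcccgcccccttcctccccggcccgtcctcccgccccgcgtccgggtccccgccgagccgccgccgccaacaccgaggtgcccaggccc
Bcl2l1: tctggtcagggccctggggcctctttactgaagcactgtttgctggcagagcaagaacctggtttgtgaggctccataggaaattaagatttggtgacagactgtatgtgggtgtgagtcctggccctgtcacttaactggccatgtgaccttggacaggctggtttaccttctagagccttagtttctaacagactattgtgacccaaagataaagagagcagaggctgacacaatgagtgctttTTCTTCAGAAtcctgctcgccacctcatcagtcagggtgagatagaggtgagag
Mcl1: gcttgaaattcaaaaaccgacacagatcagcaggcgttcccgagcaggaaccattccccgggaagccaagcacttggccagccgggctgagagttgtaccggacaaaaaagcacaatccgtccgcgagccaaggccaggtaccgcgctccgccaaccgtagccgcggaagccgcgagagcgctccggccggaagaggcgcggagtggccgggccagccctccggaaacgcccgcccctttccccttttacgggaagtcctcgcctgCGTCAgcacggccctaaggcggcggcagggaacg
The Bcl2 window had a GC content of 76% with 44 CpG dinucleotides, and the Mcl1 window 65.7% with 33, against a median GC of 52.7% over 32817 such windows. TGACG lay at -107 from the start site in Bcl2 and, read on the opposite strand as CGTCA, at 17 in Mcl1, and 20.8% of all windows held it. The Bcl2l1 start shown had a GC content of 49.3% with 1 CpG and held the palindrome with 4 inner bases at -4, a pattern in 6.94% of windows. The other Bcl2l1 starts, with 52.3% and 55.7% GC and 22 and 14 CpG dinucleotides, held no match. TTCNNNGAA was in none of the members' windows against 8.29% of all windows, and GTAAACA was likewise in none against 3.65%. These matches describe letters in these windows and show no binding.

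For each gene the probe with the highest mean level stands for it below: ILMN_1249366 for Bcl2, ILMN_2698430 for Bcl2l1 and ILMN_1216732 for Mcl1. Levels are log2 intensities after background correction and quantile normalization with neqc, and a change of 1 on this scale is a 2-fold change. Levels of different probes are not set against each other, because probes differ in brightness.

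The 3 genes varied with different parts of the design. The level of Bcl2 followed IL7, which accounted for 90.5% of its sum of squares over the 24 arrays, against 7.17% for the subset, 1.47% for the subset-by-IL7 term and 0.137% for the sort. Bcl2l1 followed the subset, with 74.4% for the subset and 18.5% for IL7. Mcl1 also followed the subset, with 63.3% for the subset and 10.5% for IL7, but 19% of its sum of squares lay between sorts. Sort 3 gave the lowest Mcl1 level in 6 of 6 groups, whereas no sort was lowest for Bcl2 in more than 3 groups or for Bcl2l1 in more than 2. These shares describe the arrays and carry no test.

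**Figure D1:**
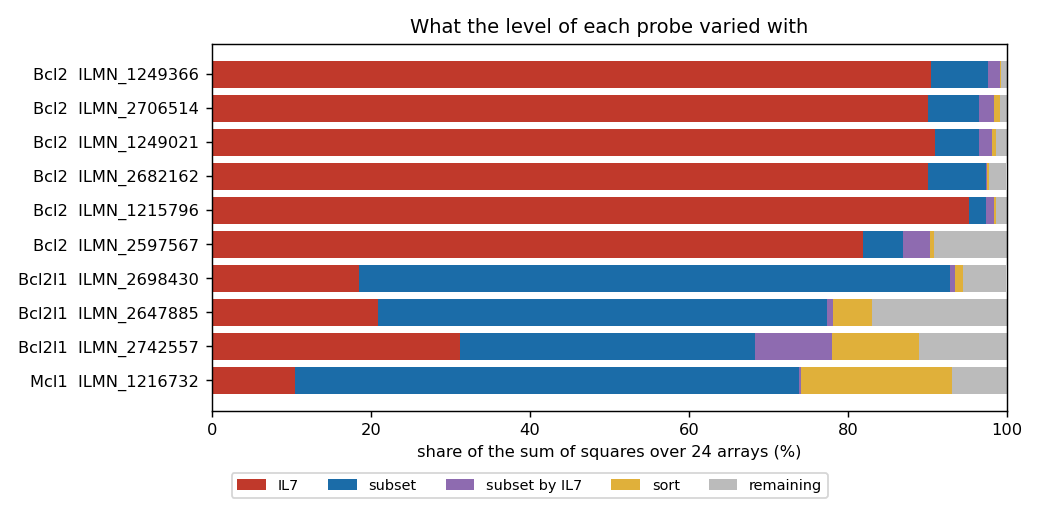
Share of the sum of squares of the log2 level over 24 arrays, in percent, for each of the 10 probes above background, divided into IL7, subset, subset by IL7, sort and what remained. The 6 Bcl2 bars are mostly IL7 (81.9% to 95.2%), whereas the subset holds the largest share in the Bcl2l1 and Mcl1 bars. The ends of that range are ILMN_2597567 and ILMN_1215796, which passed the filter only through cultures with IL7, so their large IL7 share was to be seen in any case. The other Bcl2 probes above background held 90.1% to 91%.

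Bcl2 was low in all untreated cultures and high in all cultures given IL7. In untreated DN3a cells its scanner intensity was 141, 170, 158 and 212 in sorts 1 to 4, and with IL7 it was 2348, 2668, 2301 and 2841. In DN3b cells it was 153, 193, 152 and 146 without and 1280, 2368, 1622 and 2033 with IL7. In DN4 cells it was 173, 141, 116 and 132 without and 895, 820, 535 and 718 with IL7. The lowest culture given IL7, DN4 of sort 3, thus stood above the highest untreated culture, DN3a of sort 4, and the groups without and with IL7 did not overlap in any subset, as held for 6.88%, 4.08% and 1.99% of all 12939 probes in DN3a, DN3b and DN4 cells with the IL7 group higher.

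On the normalized scale, Bcl2 in untreated DN3a cells was 6.33, 6.21, 6.60 and 6.97, and with IL7 11.32, 11.30, 11.47 and 11.43. IL7 raised it 28.9-fold there (log2 change 4.85 ± 0.14 SE, n = 4 pairs, limma adjusted p = 3.7e-10), with the 4 sorts between 4.47 and 5.09. In DN3b cells the levels were 6.51, 6.34, 6.58 and 6.24 without and 10.45, 10.72, 10.84 and 10.91 with IL7, a rise of 19.9-fold (log2 change 4.31 ± 0.14 SE, adjusted p = 8.9e-10, sorts 3.95 to 4.67). In DN4 cells they were 6.32, 5.52, 5.52 and 5.73 without and 9.31, 9.26, 9.23 and 9.44 with IL7, a rise of 11.6-fold (log2 change 3.54 ± 0.14 SE, adjusted p = 1.3e-08, sorts 3.00 to 3.74). The size of the rise depended on the background correction: without it the log2 changes in DN3a, DN3b and DN4 cells were 4.00, 3.43 and 2.41, the last 2 being 10.8-fold and 5.32-fold, with the larger offset 4.41, 3.86 and 2.91, and in the authors' deposited log2 values 3.97, 3.41 and 2.38, all called. Over all 12939 probes the median log2 change was -0.02, -0.02 and -0.01 in DN3a, DN3b and DN4 cells. The rise was also past the threshold without sorts 2 and 3, which held the granulocyte transcripts, at 4.73, 4.31 and 3.36 in DN3a, DN3b and DN4 cells, and without sorts 1 and 3, which held globin, at 4.78, 4.52 and 3.73. Each value is a level in a sorted population, in which fewer expressing cells and less RNA per cell cannot be told apart.

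**Figure D2:**
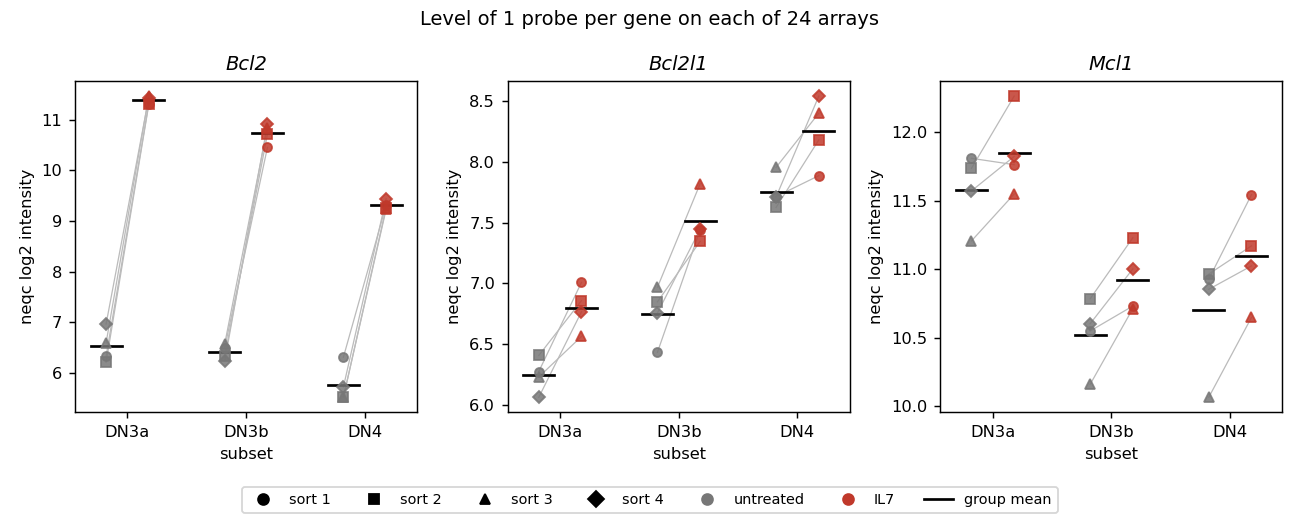
Level of the probe standing for each gene on each of 24 arrays, as neqc log2 intensity, by subset, with untreated cultures in grey, cultures with IL7 in red, lines joining the cultures of a sort and bars at the group means (n = 4). Each panel has its own axis: Bcl2 spans 5.52 to 11.47, Bcl2l1 6.06 to 8.54 and Mcl1 10.07 to 12.26.

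The 5 other Bcl2 probes above background rose as well, so that 6 of 6 were called higher in each subset, where 8.94%, 4.08% and 1.47% of all probes were called higher in DN3a, DN3b and DN4 cells. These 6 target the same gene and are not replicates, and ILMN_1215796 and ILMN_2597567 passed the filter only through cultures with IL7. Their fitted log2 changes ran from 2.16 to 4.85 in DN3a, 2.00 to 4.31 in DN3b and 1.32 to 3.78 in DN4 cells. The annotation ties the 6 probes to 2 transcript records of Bcl2, with 3 probes each. The first trio, the standing probe with ILMN_2706514 and ILMN_1249021, rose by 4.38 to 4.85 in DN3a, 3.95 to 4.31 in DN3b and 3.15 to 3.54 in DN4 cells. Of the other trio, ILMN_2682162 rose by 3.67, 3.81 and 3.78 on the log2 scale in DN3a, DN3b and DN4 cells, with 0 of 4 untreated DN4 arrays above background, which makes the last an at least 10.2-fold rise. ILMN_1215796 was above background on 0 of 4 untreated arrays of each subset and rose at least 8.38-fold, 7.17-fold and 4.28-fold. ILMN_2597567, also undetected in untreated cells, rose at least 3.36-fold, 2.96-fold and 1.69-fold. Such a bound sets the mean with IL7 against the untreated mean of the higher of the probe's own signal and the lowest signal among detected probes.

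**Figure D3:**
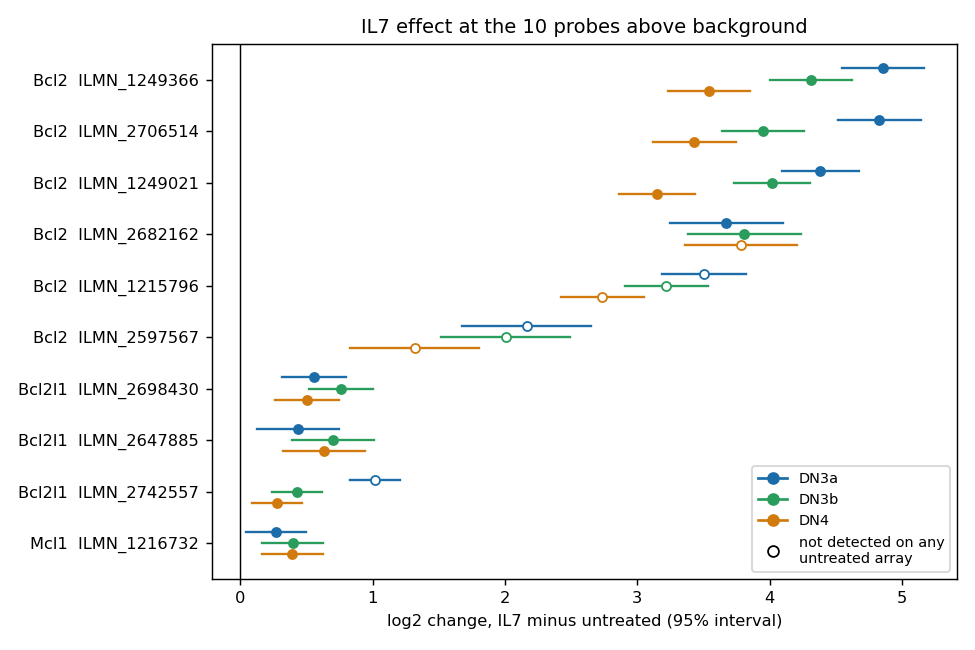
Log2 change with IL7 (IL7 minus untreated) with its 95% confidence interval for the 10 probes above background, by subset. Open circles are probes detected on 0 of 4 untreated arrays of that subset, whose fitted change is no bound. All Bcl2 probes lie at 1.32 or more, and those of Bcl2l1 and Mcl1 at 1.01 or less.

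Bcl2l1 rose with IL7 in all subsets, by 1.42-fold to 1.70-fold. In DN3a cells its level was 6.27, 6.41, 6.23 and 6.06 without and 7.01, 6.86, 6.56 and 6.77 with IL7, a rise of 1.47-fold (log2 change 0.56 ± 0.11 SE, adjusted p = 0.0035). In DN3b cells it was 6.43, 6.85, 6.97 and 6.76 without and 7.44, 7.35, 7.82 and 7.45 with IL7, a rise of 1.70-fold (log2 change 0.76 ± 0.11 SE, adjusted p = 0.00058). In DN4 cells it was 7.72, 7.63, 7.96 and 7.71 without and 7.89, 8.18, 8.40 and 8.54 with IL7, a rise of 1.42-fold (log2 change 0.50 ± 0.11 SE, adjusted p = 0.038). The change was positive in 4 of 4 sorts of each subset. The groups without and with IL7 overlapped in DN4 cells but not in DN3a or DN3b cells. In DN3a and DN3b cells, 6.88% and 4.08% of all probes likewise did not overlap with the IL7 group higher. The DN4 call was lost without the pairing of cultures (adjusted p = 0.15) and without sort 2, 3 or 4 (0.21, 0.14 and 0.31). Without sorts 2 and 3, the adjusted p was 0.073 in DN3a, 0.066 in DN3b and 0.57 in DN4 cells, at log2 changes of 0.72, 0.85 and 0.50, and without sorts 1 and 3 it was 0.063 in DN3b (change 0.59) and 0.11 in DN4 cells (0.69). Without background correction the changes were 0.30, 0.49 and 0.39, all called.

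The other Bcl2l1 probes gave changes of the same sign. ILMN_2647885 had log2 changes of 0.43 (adjusted p = 0.052), 0.70 (0.007) and 0.63 (0.041) in DN3a, DN3b and DN4 cells. ILMN_2742557 rose by 1.01 in DN3a cells (adjusted p = 4.4e-06), where it was detected on 0 of 4 untreated and 4 of 4 IL7 arrays, a rise of at least 1.67-fold. It rose by 0.43 in DN3b cells (0.0071), and its change of 0.27 in DN4 cells did not pass (0.19). Of the 3 Bcl2l1 probes, 2 were thus called higher in DN3a, 3 in DN3b and 2 in DN4 cells, where 8.94%, 4.08% and 1.47% of all probes were. These 3 target the same gene and are not replicates.

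The log2 changes of Mcl1 were 0.27 to 0.39, and its groups without and with IL7 overlapped in every subset. In DN3a cells its level was 11.81, 11.73, 11.21 and 11.57 without and 11.76, 12.26, 11.55 and 11.82 with IL7. The log2 change of 0.27 ± 0.11 SE did not pass (adjusted p = 0.099), and sort 1 went the other way at -0.05 against 0.25 to 0.53 in the other sorts. Without sort 1 the change was 0.37 and passed (adjusted p = 0.04). In DN3b cells the level was 10.55, 10.78, 10.16 and 10.60 without and 10.73, 11.23, 10.71 and 11.00 with IL7, a rise of 1.31-fold in 4 of 4 sorts (log2 change 0.39 ± 0.11 SE, adjusted p = 0.035). This call was lost without the pairing (adjusted p = 0.51) and without sort 2, 3 or 4 (0.14, 0.17 and 0.16), and without sorts 1 and 3 (0.12) or 2 and 3 (0.48). In DN4 cells the level was 10.93, 10.96, 10.07 and 10.85 without and 11.54, 11.17, 10.65 and 11.02 with IL7. The log2 change was 0.39 ± 0.11 SE there too, positive in 4 of 4 sorts, and did not pass (adjusted p = 0.095), with a 95% confidence interval of 0.17 to 0.62. In the authors' deposited log2 values, fitted the same way, Mcl1 passed in DN3a (0.26, adjusted p = 0.024) and in DN4 cells (0.38, adjusted p = 0.0078).

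Whether the subsets differed in their response was tested directly. The Bcl2 rise was smaller in DN4 than in DN3a cells, by a log2 difference of -1.31 ± 0.20 SE (adjusted p = 0.0027), in 4 of 4 sorts. It was then 2.49-fold smaller as a ratio, and 2.48% of all probes were called lower in this difference. The 3 Bcl2 probes of the first trio were all called lower, at -1.40, -1.31 and -1.23, and 0 of the other 3 were, where ILMN_2682162 gave 0.11 (adjusted p = 0.89), ILMN_1215796 -0.77 (0.054) and ILMN_2597567 -0.85 (0.17). The last 3 were undetected in untreated DN4 cells, so that their changes there are not fully measured. Of the first trio, ILMN_2706514 was detected on 1 of 4 untreated DN4 arrays. The standing probe was near background on those arrays, with detection p-values of 0.011 to 0.031 in sorts 2 to 4. Without sorts 1 and 3 the difference was -1.05 (adjusted p = 0.17) and without sorts 2 and 3 it was -1.37 (0.28), so the call was lost with 2 sorts left. The steps between neighbouring stages did not pass: the rise in DN3b minus that in DN3a cells was -0.54 ± 0.20 SE (adjusted p = 0.23) and that in DN4 minus DN3b cells -0.77 ± 0.20 SE (0.18), where 0.294% of all probes were called. In the authors' values, which lay within 0.084 of those without background correction, both steps passed, at -0.56 (0.0028) and -1.03 (1.7e-06).

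For Bcl2l1 and Mcl1 no difference of IL7 effects passed at the standing probe. For Bcl2l1 the 95% interval of the DN4 minus DN3a difference ran from -0.40 to 0.29 and for Mcl1 from -0.20 to 0.45, so differences of about that size were not resolved. The Bcl2l1 probe ILMN_2742557 gave smaller changes in DN3b than in DN3a cells (-0.59, adjusted p = 0.033, against 0.819% of all probes called lower) and in DN4 than in DN3a cells (-0.74, 0.0049). Its untreated DN3a level was below background, and both calls were lost without the pairing (0.72 and 0.27).

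In the untreated cultures, the members ran in different directions along the path from DN3a to DN4. Bcl2l1 was higher at each step: DN3b minus DN3a was 0.51 ± 0.11 SE (adjusted p = 0.0035), DN4 minus DN3b 1.00 ± 0.11 SE (0.0014) and DN4 minus DN3a 1.51 ± 0.11 SE (1.5e-06), a 2.85-fold higher level in DN4 cells, in 4 of 4 sorts each. Mcl1 was lower after the first step, at -1.06 ± 0.10 SE (8.5e-06), or 2.08-fold, in DN3b against DN3a cells, and DN4 cells differed from DN3b cells by 0.18 ± 0.10 SE (0.41). In DN4 against DN3a cells it was -0.88 ± 0.10 SE (2.6e-05). Bcl2 in DN3b minus DN3a cells was -0.11 ± 0.19 SE (0.65) and in DN4 minus DN3b cells -0.64 ± 0.19 SE (0.11), while DN4 minus DN3a was -0.75 ± 0.19 SE (0.0056), or 1.69-fold lower. Of the 6 Bcl2 probes, 1, 0 and 3 were called lower in DN3b against DN3a, DN4 against DN3b and DN4 against DN3a cells. ILMN_1215796 and ILMN_2597567 were detected on 0 of 4 untreated arrays of each subset and could show no such difference. ILMN_2682162, called in DN4 against DN3a cells, was detected on 0 of 4 untreated DN4 arrays. The standing probe was near background there, with detection p-values of 0.011 to 0.031 in sorts 2 to 4. Of the 3 Bcl2l1 probes, 2, 1 and 3 were called higher in the same comparisons. In untreated DN3a cells ILMN_2742557 was detected on 0 of 4 arrays and ILMN_2647885 on 2 of 4. Their differences from DN3a cells are therefore not fully measured.

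These differences are to be read against broad differences between the subsets. Of all probes, 25.7% were called higher and 28.7% lower in untreated DN3b against DN3a cells, 28% and 29.9% in DN4 against DN3a cells, and 1.19% and 1.87% in DN4 against DN3b cells. A call in the last of these comparisons, such as that of Bcl2l1, is rarer than a call against DN3a cells. The granulocyte sum was highest, among untreated arrays, in DN4 cells of sorts 2 and 3, and its part in these results was not tested. Without these sorts the untreated DN4 minus DN3a difference was 1.55 for Bcl2l1 (adjusted p = 0.0007) and -0.80 for Mcl1 (0.0048), and the Bcl2 value of -0.63 was no longer called (0.11). Bcl2l1 in DN4 minus DN3b cells was 1.12 without them (0.063), and 0.87 without sorts 1 and 3 (0.077), and in DN3b minus DN3a cells it was 0.43 without sorts 2 and 3 (0.087). Without background correction the untreated differences of Bcl2l1 were 0.27 for DN3b minus DN3a, 0.66 for DN4 minus DN3b and 0.93 for DN4 minus DN3a cells. For Bcl2, DN4 minus DN3a was -0.36, and all of these were called.

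With IL7, Bcl2 was lower at each step along the path. DN3b minus DN3a was -0.65 ± 0.09 SE (adjusted p = 0.00026), DN4 minus DN3b -1.42 ± 0.09 SE (2.8e-05) and DN4 minus DN3a -2.07 ± 0.09 SE (5.5e-08), or 4.19-fold lower. Of the 6 Bcl2 probes, 4 were called lower in DN3b against DN3a, 3 in DN4 against DN3b and 6 in DN4 against DN3a cells given IL7. The 3 called between DN4 and DN3b cells were those of the first trio. In the last comparison, 25% of probes were called higher and 27.6% lower. The standing probe of Bcl2l1 was again higher at each step, with DN3b minus DN3a at 0.71 ± 0.16 SE (0.0042), DN4 minus DN3b at 0.74 ± 0.16 SE (0.028) and DN4 minus DN3a at 1.46 ± 0.16 SE (3.3e-05). Of the 3 Bcl2l1 probes, 2, 1 and 2 were called higher in these comparisons: ILMN_2647885 gave 0.75 (0.0082), 0.53 (0.17) and 1.29 (0.00027), and ILMN_2742557 gave 0.02 (0.93), 0.37 (0.29) and 0.39 (0.078). Mcl1 was again lower in DN3b than in DN3a cells, at -0.93 ± 0.15 SE (0.00047), and in DN4 than in DN3a cells, at -0.75 ± 0.15 SE (0.0016), with 0.18 ± 0.15 SE (0.59) between DN4 and DN3b cells. Of all probes, 23% and 26% were called higher and lower in DN3b against DN3a cells with IL7, and 2.08% and 2.9% in DN4 against DN3b cells. The Bcl2l1 step from DN3b to DN4 cells was lost without sort 2 (0.16), sort 4 (0.17) or sorts 2 and 3 (0.32). Without sorts 2 and 3 the Bcl2l1 step from DN3a to DN3b cells was 0.56 (0.13) and the Mcl1 difference between DN4 and DN3a cells -0.51 (0.12).

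**Figure D4:**
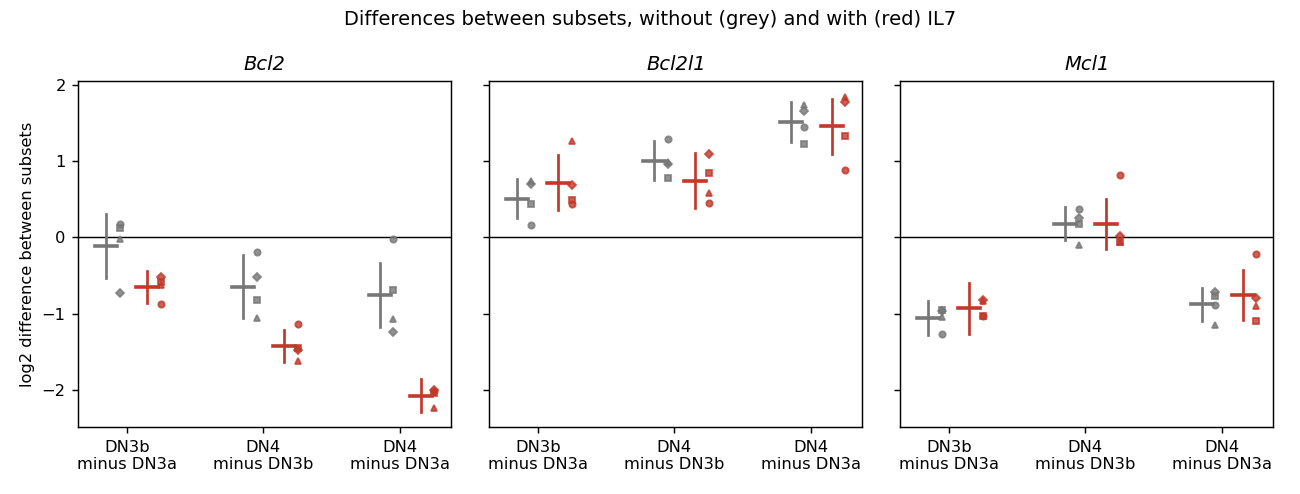
Log2 difference between subsets for the standing probe of each gene, without IL7 in grey and with IL7 in red. Bars are the limma estimates with 95% confidence intervals and small symbols the 4 sorts, shaped as circle, square, triangle and diamond for sorts 1 to 4. The Bcl2l1 differences lie above 0, those of Mcl1 against DN3a cells below 0, and those of Bcl2 reach -2.07 with IL7.

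Ordered by mean level, Bcl2 ran from DN3a with IL7 (11.38 ± 0.08 SD, n = 4) to DN3b with IL7 (10.73 ± 0.20) and DN4 with IL7 (9.31 ± 0.09), each apart from the next, and then untreated DN3a (6.53 ± 0.34), DN3b (6.42 ± 0.16) and DN4 cells (5.77 ± 0.37), which overlapped their neighbours. Bcl2l1 was highest in DN4 with IL7 (8.25 ± 0.29), followed by untreated DN4 (7.75 ± 0.14), DN3b with IL7 (7.51 ± 0.21), DN3a with IL7 (6.80 ± 0.19), untreated DN3b (6.75 ± 0.23) and untreated DN3a cells (6.24 ± 0.14). Its neighbours in this order overlapped except between DN3b and DN3a with IL7 and between untreated DN3b and DN3a cells. Of all probes, 21% lay apart and lower in DN3b than in DN3a cells with IL7, as Bcl2 did. A further 18.5% lay apart and higher there, as Bcl2l1 did. In DN4 against DN3b cells with IL7, 4.59% of all probes lay apart and lower. In untreated DN3b against DN3a cells, 20.1% lay apart and higher. Mcl1 was highest in DN3a with IL7 (11.85 ± 0.30) and untreated DN3a cells (11.58 ± 0.27), then in DN4 with IL7 (11.10 ± 0.37), DN3b with IL7 (10.92 ± 0.25), untreated DN4 (10.70 ± 0.43) and untreated DN3b cells (10.52 ± 0.26), and each group overlapped the next. Untreated DN4 cells, low for Bcl2, thus held a high level of Bcl2l1, and DN3a cells given IL7 were high for both Bcl2 and Mcl1.

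After each sort's mean was subtracted, the levels of the members correlated with each other over the 24 arrays at 0.18 for Bcl2 and Bcl2l1, 0.48 for Bcl2 and Mcl1 and -0.40 for Bcl2l1 and Mcl1. These arrays share subsets, IL7 and sorts, so the values only describe the pattern. By the same measure the genes whose pattern was most like that of Bcl2 were Cish (r = 0.987), Osm (0.985), Socs2 (0.978), Rasgrp1 (0.978) and Klf2 (0.976). Most like Bcl2l1 were Fas (0.974), Slamf1 (0.954), Cd2 (0.936), Slfn1 (0.927) and Rab29 (0.907), and most like Mcl1 were Itpr2 (0.932), Ttc19 (0.928), Clock (0.927), Dnajc7 (0.927) and Rmnd5b (0.922). The genes like Bcl2 were picked for following a level that varied mostly with IL7, so their rise with IL7 in all subsets is no separate result. Their log2 changes in DN3a cells ran from 1.32 for Rasgrp1 to 5.59 for Cish. The genes like Bcl2l1 were likewise picked for following a level that rose with IL7, so a rise among them is no separate result. Among these, Fas, which encodes a death receptor, rose by 0.49, 0.87 and 0.45 in DN3a, DN3b and DN4 cells (adjusted p = 0.003, 5.6e-05 and 0.031). Rab29 changed by 0.09, 0.08 and 0.05 without a call.

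Other BCL2 family genes did not show the rise of Bcl2. Of 16 listed relatives, 8 had a probe above background, and 0 of 8 were called higher with IL7 in any subset. Of all probes, 8.94%, 4.08% and 1.47% were called higher in DN3a, DN3b and DN4 cells. A count of 0 among 8 is near these shares and sets the relatives apart from other genes in no way. The median log2 change of the relatives was -0.07, -0.14 and -0.04 in DN3a, DN3b and DN4 cells. Over all probes it was -0.02, -0.02 and -0.01. The anti-apoptotic relative Bcl2l2, which encodes BCL-w, changed by -0.05, 0.06 and -0.05, and the effector Bak1 by -0.00, -0.07 and -0.04, none of them called. Bcl2a1d, Bcl2l10, Bok and Hrk were detected on 0 arrays and Bik on 1, and Bcl2a1a, Bcl2a1b and Bax had no named probe here.

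Among 6 measured BH3-only genes, Bbc3, which encodes PUMA, fell by 0.33 ± 0.09 SE on the log2 scale in DN3a cells (adjusted p = 0.02) and by 0.59 ± 0.09 SE in DN3b cells (0.0007), and its value in DN4 cells was -0.34 (0.084). A second Bbc3 probe fell by 0.46 in DN3b cells (0.021) and gave -0.09 in DN3a cells (0.63), and another gave -0.47 (0.16) and -0.31 (0.51). Bid fell by 0.42 ± 0.09 SE in DN3b cells (0.0071), where its second probe gave -0.25 (0.53). Bcl2l11, which encodes BIM, had values of -0.06, -0.20 and 0.03 and Bmf of -0.49, -0.53 and -0.35, with adjusted p from 0.056 to 0.96. Of all probes, 9.94%, 4.4% and 0.433% were called lower in DN3a, DN3b and DN4 cells, beside which 1, 2 and 0 of the 8 relatives were. The call of the relative in DN3a cells was lost without sort 1, 2 or 4 and without the pairing.

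Among turnover factors and partners, Fbxw7, part of a ubiquitin ligase that targets MCL1, rose by 0.48 ± 0.07 SE in DN3a cells (adjusted p = 0.00055) and 0.35 ± 0.07 SE in DN3b cells (0.0083). Becn1, the autophagy protein that BCL2 binds, rose by 0.29 in DN3a cells (0.019), though a second probe gave -0.04 (0.87). The MCL1 ligase gene Huwe1, the deubiquitinase gene Usp9x, Bag1 and Vdac2 were not called in any subset, so 2, 1 and 0 of 6 were called higher in DN3a, DN3b and DN4 cells, where 8.94%, 4.08% and 1.47% of all probes were. In the apoptosome list, Diablo, which encodes an antagonist of caspase inhibitors, rose by 0.43 ± 0.07 SE in DN3a (0.00057) and 0.31 ± 0.07 SE in DN3b cells (0.009), and Casp9 fell by 0.28 ± 0.07 SE in DN3a cells (0.015). Cycs, Apaf1 and Xiap were not called.

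Of 9 listed receptor and STAT5 pathway genes, which include STAT5 targets, 7 were measured, with Stat5b detected on 0 arrays and Il2rg without a named probe. The STAT5 target genes rose in all subsets. Cish, a feedback inhibitor, rose by 5.59, 5.72 and 4.74 on the log2 scale in DN3a, DN3b and DN4 cells (adjusted p = 3.7e-10, 1.9e-10 and 3.1e-09). Socs2, its relative, rose by 5.21 in DN3a cells (6.9e-10), with 2 of 4 untreated arrays above background, and at least 55.6-fold and 11.2-fold in DN3b and DN4 cells, with 0 of 4. The kinase gene Pim1 rose by 1.18, 1.45 and 1.38 (0.00067, 0.00019 and 0.00089), while a second probe gave -0.17, -0.06 and -0.09. Among the signalling components themselves, Jak1 fell by 0.53 in DN3a cells (0.046), and Il7r, the receptor's own chain, fell by 0.63 (0.048) and Stat5a by 0.27 (0.049) in DN3b cells. Their second probes gave -0.82 (0.073) and -0.01 (0.99). Over all 26 measured pathway genes, 6 were called higher and 3 lower in DN3a, 5 and 4 in DN3b and 3 and 0 in DN4 cells. Over all probes, 8.94% and 9.94%, 4.08% and 4.4%, and 1.47% and 0.433% were. The 3 pathway genes called higher in DN4 cells were the STAT5 targets Cish, Socs2 and Pim1.

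**Figure D5:**
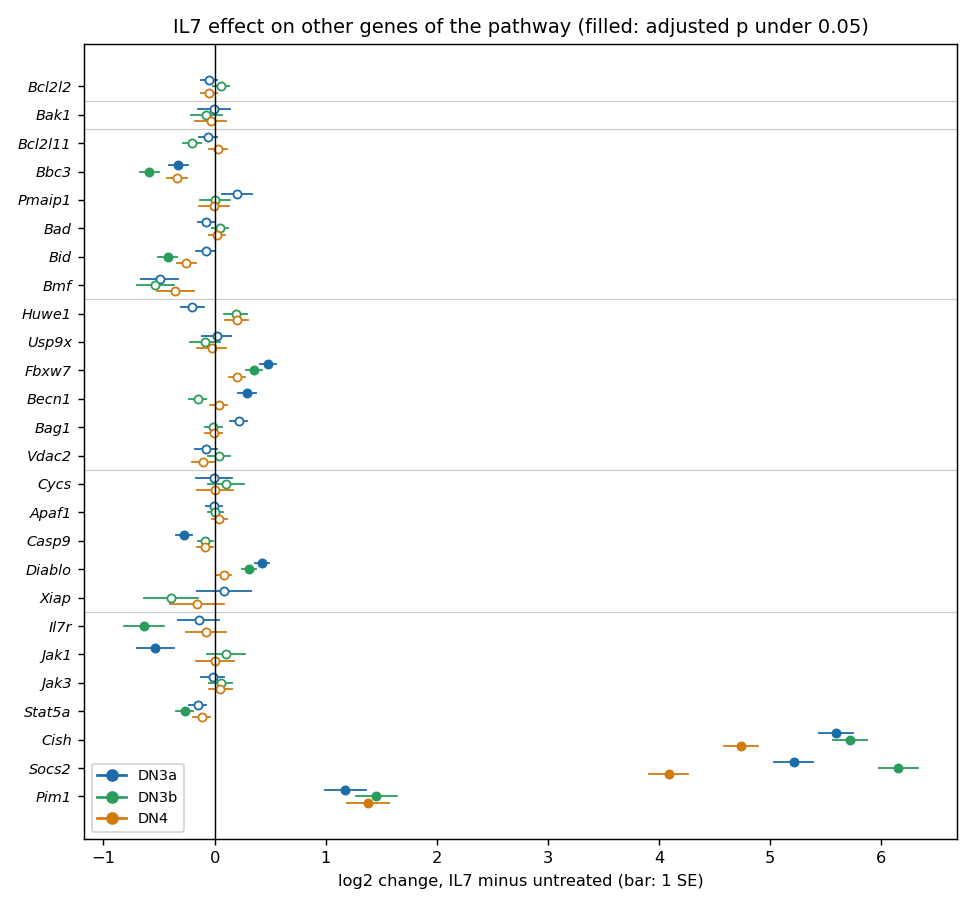
Log2 change with IL7 for the 26 measured genes of the pathway in each subset, with bars of 1 SE and filled circles where the limma adjusted p was under 0.05. From top to bottom, lines divide the anti-apoptotic relative, the effector, the BH3-only genes, turnover factors and partners, the apoptosome and caspase genes, and the receptor and STAT5 pathway. Only Cish, Socs2 and Pim1 lie beyond 1, and the BCL2 family relatives lie between -0.59 and 0.20.

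Between untreated subsets the relatives did differ. In DN4 against DN3a cells, Bmf was lower by -2.50 ± 0.16 SE on the log2 scale, Bcl2l2 by -1.34 ± 0.10 SE, Bcl2l11 by -1.16 ± 0.09 SE and Bbc3 by -0.87 ± 0.11 SE, and Bid was higher by 0.64 ± 0.09 SE, with adjusted p of 0.00012 or less. Thus 4 of 8 relatives were called lower and 1 higher, where 29.9% and 28% of all probes were. Bcl2l1 (1.51) and Bid (0.64) were higher in DN4 cells, while Mcl1 (-0.88), Bcl2 (-0.75) and Bcl2l2 (-1.34) were lower together with the BH3-only genes Bmf, Bcl2l11 and Bbc3. Il7r was higher in untreated DN3b than in DN3a cells by 1.31 ± 0.10 SE and lower in DN4 than in DN3b cells by -0.63 ± 0.10 SE (adjusted p = 2.3e-06 and 0.0081). Stat5a, Jak1 and Jak3 were lower in DN4 than in DN3a cells, at -0.57, -0.95 and -0.97 (0.00013, 0.00025 and 2.2e-05).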

How the data were processed

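RNA (250 ng per sample) from 24 cultures was hybridised to Illumina mouse Ref8v2 beadchips, per the labels' protocols. The deposited scanner table holds an intensity and a detection p-value per probe and array, without normalization, exported with GenomeStudio 2011.1 per the submitters' processing notes. The authors' log2 table was made by background subtraction, quantile normalization and log2 transformation, per the series' design text. Its columns lay within 0.084 of log2 quantile-normalized intensities without background correction, and each of the 24 columns matched its own array best.

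Here intensities were corrected, quantile-normalized and put on the log2 scale with neqc (offset 16), with the negative controls inferred from the detection p-values. Probes detected (p under 0.05) on at least 4 arrays were kept, 12939 of 25697. Fits used limma 3.58.1 in R 4.3.3 with Benjamini-Hochberg adjustment over all kept probes and a threshold of 0.05. IL7 effects and their differences used a model of all 24 arrays in which each of the 12 culture pairs was a block, as the authors paired them. Its spread was pooled over the subsets, so the IL7 effects of a probe share the same SE. Subset comparisons used 12 arrays with the sort as block. Sort numbers come from the labels. Deviations from group means of cultures that shared a subset and a sort correlated at 0.228 or more (median 0.442), and each of the 24 arrays correlated best with another of its own sort.

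Gene symbols came from the platform annotation, updated through gene IDs for 23962 probes: 1 symbol was found for 23978 probes, several for 0 and no symbol for 1719. The highest-mean kept probe stands for a gene. Genes named beyond the members were those of the listed pathway and the 5 genes most correlated with each member over 24 arrays after sort means were subtracted. The members and lists were chosen with earlier results of these data known. The fits were tested on simulated data. Alternatives changed the background correction, offset, filter, block, probe per gene and arrays used, and the authors' log2 values were refitted. Figures were drawn with matplotlib 3.10.9 in Python 3.11.15.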

Additional observations from a re-analysis of the deposited data

Results flagged for a closer look

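The IL7 effect on Bcl2 in DN4 cells was 3.00 on the log2 scale in sort 1 and 3.71 to 3.74 in the other sorts, which put sort 1 apart from the rest by Dixon's criterion. Untreated Bcl2 in DN4 cells was 6.32 in that sort against 5.52 to 5.73. The untreated DN4 level of Mcl1 was 10.07 in sort 3 and 10.85 to 10.96 in the other sorts, which met the same criterion. That array also held a summed granulocyte level of 8015, and their part in the result was not tested. The criterion was applied to 27 groups of 4, and chance alone flags about 1 in 20.

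The IL7 effect on Bcl2 at the standing probe differed between subsets by the test of the difference itself: DN4 minus DN3a was -1.31 ± 0.20 SE (limma adjusted p = 0.0027), lower in 4 of 4 sorts. Of the 6 Bcl2 probes above background, 3 were called lower, and ILMN_2682162 gave 0.11 (0.89). The call was lost without sorts 1 and 3 (0.17) and without sorts 2 and 3 (0.28). In untreated DN4 cells the standing probe was near background, with detection p-values of 0.011 to 0.031 in sorts 2 to 4.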

How the results depend on the processing

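Of 36 member results, 14 kept their direction and their side of the threshold under every one of up to 15 alternatives, among them the IL7 effect on Bcl2 in each subset. Values are log2 with the limma adjusted p in brackets. Where a call changed the cause was not tested, except that leaving out sorts leaves fewer arrays. The authors' values lay within 0.084 of those without background correction, so these alternatives are not separate checks.

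Without background correction, with the larger offset and in the authors' values, the Bcl2 response in DN3b minus DN3a cells was -0.56 (0.0039), -0.56 (0.043) and -0.56 (0.0028), and in DN4 minus DN3b cells -1.02 (2.8e-06), -0.95 (0.0022) and -1.03 (1.7e-06), now called. The Bcl2l1 response in DN4 minus DN3a cells turned to 0.086 (0.73), 0.038 (0.91) and 0.091 (0.71). The Mcl1 effect in DN4 cells was 0.38 (0.0094), 0.39 (0.036) and 0.38 (0.0078), and in DN3a cells 0.26 (0.027) without correction and 0.26 (0.024) in the authors' values, where its DN4 minus DN3b response was 2.27e-05 (1).

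The pairing mattered for 2 member calls. Without the replicate block the IL7 effect was 0.50 (0.15) for Bcl2l1 in DN4 and 0.39 (0.51) for Mcl1 in DN3b cells, and it changed no other of the 36 calls. Without the block, 1171, 530 and 124 of all probes were called in DN3a, DN3b and DN4 cells, against 2443, 1097 and 246 with it. The same 2 effects were 0.50 (0.053) and 0.39 (0.051) with no filter, 0.50 (0.19) and 0.39 (0.069) on the 8 arrays of the subset alone, and 0.50 (0.086) and 0.39 (0.059) with the sort as block over 24 arrays. That last fit gave -0.64 (0.019) for untreated Bcl2 in DN4 minus DN3b cells. The 8 arrays alone called 633 and 98 probes in DN3b and DN4 cells.

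Without sorts 1 and 3, Bcl2l1 effects were 0.59 (0.063) in DN3b and 0.69 (0.11) in DN4 cells, its responses 0.10 (0.88) in DN4 minus DN3b and 0.12 (0.82) in DN4 minus DN3a cells, and its untreated DN4 minus DN3b difference 0.87 (0.077). The Bcl2 response in DN4 minus DN3a cells was -1.05 (0.17), the Mcl1 effect in DN3b cells 0.42 (0.12), its DN4 minus DN3a response -0.20 (0.61) and its DN4 minus DN3b difference with IL7 -0.018 (0.97). Without sorts 2 and 3, Bcl2 gave -1.37 (0.28) for that response and -0.63 (0.11) untreated in DN4 minus DN3a cells. Bcl2l1 effects were 0.72 (0.073), 0.85 (0.066) and 0.50 (0.57), its untreated steps 0.43 (0.087) and 1.12 (0.063), and its steps with IL7 0.56 (0.13) and 0.77 (0.32). Mcl1 gave 0.29 (0.48) in DN3b cells, 0.10 (1) for its DN4 minus DN3b response and -0.51 (0.12) with IL7 in DN4 minus DN3a cells. All-probe calls were 750, 409 and 74 without sorts 1 and 3 and 536, 293 and 77 without sorts 2 and 3.

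Leaving out 1 sort at a time, Bcl2l1 ran from 0.39 to 0.61 for the DN4 effect, -0.12 to 0.11 for the DN4 minus DN3a response and 0.62 to 0.84 for the DN4 minus DN3b step with IL7. Mcl1 ran from 0.18 to 0.37 and 0.34 to 0.47 for its effects in DN3a and DN3b cells, -0.15 to 0.078 and -0.054 to 0.27 for the DN4 minus DN3b and DN4 minus DN3a responses, and -0.034 to 0.26 for the DN4 minus DN3b step with IL7. Untreated Bcl2 in DN3b minus DN3a cells ran from -0.21 to 0.10, turning without sort 4. All-probe calls ran from 1497 to 1790, 600 to 784 and 109 to 173. The BCL2 family relatives called lower were 0 to 2 of 8 in DN3a, 1 to 3 in DN3b and 0 to 1 in DN4 cells. The untreated Bcl2 difference between DN4 and DN3a cells was -0.36 without background correction against -0.75, and the cause was not tested.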
